A study of Mus musculus with 14 samples.

Results

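The 10 epicardial marker genes described here were Wt1, Tcf21, Upk3b, Upk1b, Msln, Krt19, Krt8, Krt18, Lrrn4 and Bnc1. They were taken as a fixed list of names, and each was matched by symbol to the probe sets of the array, where 1 probe set carried each name. They are 10 of the 19931 genes for which the arrays gave a value with a single gene symbol. The hearts came from mouse embryos at E12.5 (the embryonic day) and were measured on 14 Affymetrix Mouse Gene 1.0 ST arrays. The reference was Irx5+/- (3 arrays), in which 1 copy of Irx5 was mutant. The other genotypes were Irx3-/-;Irx5+/- with 4 arrays, Irx5-/- with 3, and Irx3-/-;Irx5-/- with 4, called double mutants here. All 14 hearts therefore carried at least 1 mutant copy of Irx5, and no group was wild type. The Irx alleles, how they were made and the strain are not given in the labels, which also do not say whether each array is 1 embryo or a pool. The p-values therefore reflect only how far these samples spread, part of which may be technical.

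The epicardium is the mesothelial sheet that covers the heart. Its cells form a simple epithelium with keratins and uroplakins, and are known for the transcription factors Wt1 and Tcf21. Some of them lose their epithelial form, enter the heart wall and give rise to fibroblasts and mural cells, while the sheet sends growth signals such as retinoic acid to the muscle beneath it. Irx3 and Irx5 encode Iroquois homeodomain proteins, which regulate transcription, and lie near each other in the genome.

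In whole hearts, fewer epicardial cells and less RNA of a gene per cell cannot be told apart. Each value is a log2 signal, so that 1 unit is a doubling. The arrays had close medians (8.0 to 8.1 over genes) and correlated at 0.962 to 0.987. The Irx3 signal was 8.43 to 8.53 on the reference arrays, 7.87 to 8.17 in Irx3-/-;Irx5+/- hearts, 8.14 to 8.25 in Irx5-/- hearts and 7.60 to 7.86 in double mutants. The Irx5 signal of Irx5-/- hearts (7.86 to 8.34) and double mutants (7.52 to 8.43) overlapped that of the reference (8.19 to 8.41), and the sources used here do not give whether either probe set falls within a deletion. One array, Irx3-/-;Irx5+/- replicate 4, belongs to its group by title and genotype label, but its description names Irx5-/-. Its Irx3 signal of 8.17, the highest of its group (median 7.91), lay among those of the Irx5-/- arrays. Its endothelial mean of 0.46 against all arrays did not (-0.44 to -0.16), nor did its signals of Cav1 (10.63 against 9.88 to 10.15) and Tgfbr3 (10.65 against 9.32 to 10.03), genes picked after their values were seen. It was kept in the group of its title, and differences of single marker genes that involve that group are also given without it.

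Marker genes of other cell types also differed between arrays. The sarcomere genes, which mark heart muscle, had their lowest mean on Irx5+/- replicate 3, at -1.58 against the mean of all arrays, and their highest on Irx5-/- replicate 2, at 0.73. That Irx5-/- array also had the highest mean of 12 macrophage genes, at 0.54, where the other 13 arrays ran from -0.24 to 0.09. All 22 sarcomere genes lay above 0 in each of the 3 mutant groups against the reference, with medians of 0.86, 0.93 and 1.18 in the order of genotypes above, and 0 of them passed the test. These medians rest in part on Irx5+/- replicate 3, without which they were 0.31, 0.29 and 0.66. The 22 endothelial and endocardial markers had medians of -0.16, -0.71 and -0.71, and 0 passed. Without Irx5+/- replicate 2 the first was -0.05. As a floor for genes not expected in heart, 95% of 1026 olfactory receptor genes had a mean signal below 7.57. All 10 epicardial genes had a mean over arrays above it, with Msln nearest at 7.93, although probe sets differ in brightness and this sets no level of a gene against another. Of the epithelial genes of lung and foregut, 2 of 13 lay above the floor, and Epcam (6.75) and Cdh1 (7.02) did not. Lying above the floor does not by itself show that a gene is expressed. Of the liver markers, Apoa2 (8.36), Hnf4a (7.89) and Apoa1 (7.88) lay above it, while others such as Alb (6.22) and Afp (6.47) did not. Among the macrophage genes, some such as Cx3cr1 (8.20) and Lyve1 (8.03) lay above the floor. Others such as Csf1r (6.92), Mrc1 (7.01) and Adgre1 (5.63) did not.

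The promoters of 6 of the 10 genes are held in the RefSeq table of the build GRCm38.p6. The 250 bases before the start of 4 of them are shown because 3 (Upk3b, Lrrn4 and Bnc1) had the highest correlations with each other across the arrays, and the remaining one, Tcf21, had the largest difference between double mutants and the reference. Capitals mark any match, on either strand, to a GATA site (AGATAA), a TEAD site (GGAATG), an E-box (CAGCTG) or the core of a WT1 site (GCGTGGG). They are written 5′ to 3′ along the gene's own strand, and lie at chr5:136038246-136038495 (plus strand) for Upk3b, chr2:132880863-132881112 (minus strand) for Lrrn4, chr7:81992300-81992549 (minus strand) for Bnc1 and chr10:22820144-22820393 (minus strand) for Tcf21.
Upk3b: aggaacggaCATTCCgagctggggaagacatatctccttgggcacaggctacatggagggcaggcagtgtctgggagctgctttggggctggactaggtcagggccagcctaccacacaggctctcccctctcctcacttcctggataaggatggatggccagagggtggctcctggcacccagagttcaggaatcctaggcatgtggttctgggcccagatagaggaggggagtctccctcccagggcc
Lrrn4: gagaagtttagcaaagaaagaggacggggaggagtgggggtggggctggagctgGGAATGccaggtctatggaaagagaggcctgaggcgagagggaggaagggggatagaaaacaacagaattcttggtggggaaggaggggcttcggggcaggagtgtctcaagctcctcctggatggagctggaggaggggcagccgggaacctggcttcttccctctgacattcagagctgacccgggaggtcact
Bnc1: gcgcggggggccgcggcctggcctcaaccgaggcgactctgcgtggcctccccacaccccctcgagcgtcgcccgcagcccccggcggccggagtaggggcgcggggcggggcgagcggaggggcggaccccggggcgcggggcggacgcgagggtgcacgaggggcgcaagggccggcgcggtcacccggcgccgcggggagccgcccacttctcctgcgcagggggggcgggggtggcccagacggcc
Tcf21: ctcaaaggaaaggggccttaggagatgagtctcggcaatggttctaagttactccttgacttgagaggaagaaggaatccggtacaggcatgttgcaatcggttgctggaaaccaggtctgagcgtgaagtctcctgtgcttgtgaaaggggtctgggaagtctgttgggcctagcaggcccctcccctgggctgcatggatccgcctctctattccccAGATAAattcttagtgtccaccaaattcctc
Upk3b and Lrrn4 each held 1 TEAD match, Tcf21 held 1 GATA match, and Bnc1 held none of the 4 motifs. Of the keratin pair, Krt8 held 1 GATA match and Krt18 none. A TEAD match was thus in 2 of 6 promoters, against 12.6% of all 32851 promoter windows of this length. A GATA match was in 2 of 6, against 9.99% of all windows. The WT1 core and the E-box were in 0 of 6, against 4.3% and 13%. The 3 promoters of the most correlated genes differed in composition. Bnc1 had 83.6% G and C with 39 CpG pairs, Lrrn4 59.2% with 5, and Upk3b 60.8% with 2, where the median over all windows was 52.4% with 6.

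None of the 10 genes passed the test in any comparison of genotypes. With limma over all 19931 genes and a Benjamini-Hochberg adjusted p under 0.05, 0 of 10 were called in Irx3-/-;Irx5+/- hearts against the reference (0% of all genes called), 0 of 10 in Irx5-/- hearts (0%) and 0 of 10 in double mutants (0.0201%). The counts were also 0 of 10 for double mutants against Irx3-/-;Irx5+/- hearts (0.00502%), for double mutants against Irx5-/- hearts (0%), for any difference among the 4 genotypes (0.00502%), and for the interaction (0%), which asks whether loss of Irx3 had the same effect with no copy of Irx5 as with 1. Irx3, a targeted gene, did not pass for any difference among the 4 genotypes either (adjusted p = 0.111 in limma). Its signal was nevertheless lower on every double mutant array (7.60 to 7.86) than on any reference array (8.43 to 8.53). The tests of Irx3 between single pairs of genotypes are not given here. A gene that does not pass here is thus not shown to be unchanged. At an unadjusted p under 0.05 the counts were 0, 1 and 2 of 10 against the reference in the order of genotypes above, where 5.07%, 10.6% and 13.5% of all genes were. They were 2 of 10 for double mutants against Irx3-/-;Irx5+/- hearts (7.67% of all genes), 1 of 10 against Irx5-/- hearts (3.63%) and 0 of 10 for the interaction (4.04%), and 1 of 10 for any difference among the genotypes (9.32%). The arrays of 2 groups did not overlap for 3 of 10 genes in Irx3-/-;Irx5+/- hearts against the reference (5.73% of all genes), for 1 in Irx5-/- hearts (16.2%) and for 1 in double mutants (12.1%). Against Irx3-/-;Irx5+/- and Irx5-/- hearts the double mutants overlapped in all 10 (4.82% and 4.11% of all genes did not). The median difference from the reference was 0.00 in Irx3-/-;Irx5+/- hearts, 0.04 in Irx5-/- hearts and 0.18 in double mutants, beside 0.00, -0.03 and -0.03 over all genes. Single arrays moved these medians. That of double mutants was 0.02 without Irx3-/-;Irx5-/- replicate 1 and 0.34 without replicate 3. That of Irx5-/- hearts ran from -0.25 without Irx5-/- replicate 1 to 0.25 without replicate 2, and that of Irx3-/-;Irx5+/- hearts from -0.06 to 0.09. The genes of the list that lay farthest from the reference were Tcf21 and Krt19, both higher in double mutants.

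**Figure D1:**
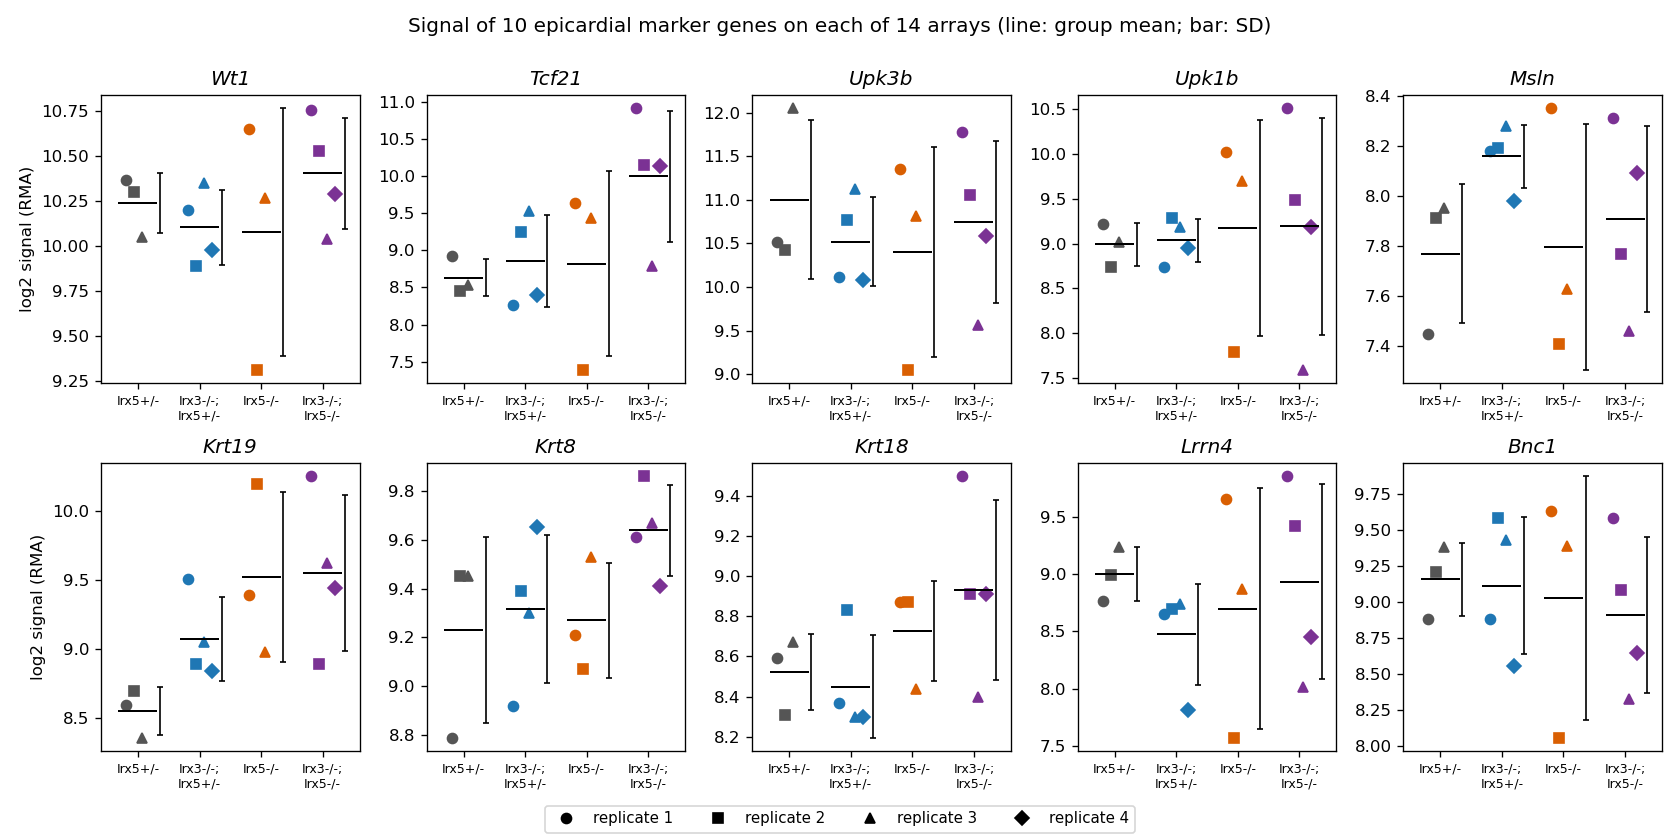
Log2 signal (vertical axis) of each of the 10 epicardial marker genes on each of the 14 arrays, by genotype (horizontal axis), with marker shape giving the replicate number, a line at the group mean and a bar of 1 SD either side beside it. Scales differ between panels. Krt19 is the gene whose 3 reference arrays (8.36 to 8.70) lie below all 11 mutant arrays (8.84 to 10.25), while most other genes spread more within Irx5-/- hearts and double mutants than between group means.

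Wt1 encodes a zinc finger transcription factor that marks the epicardium from its formation. Its signal was 10.37, 10.30 and 10.05 on the reference arrays and 10.20, 9.89, 10.35 and 9.98 in Irx3-/-;Irx5+/- hearts. It was 10.65, 9.31 and 10.27 in Irx5-/- hearts and 10.76, 10.53, 10.04 and 10.29 in double mutants. The groups overlapped throughout, and Irx5-/- replicate 2 was the lowest array of all. The group means were 10.24 ± 0.17 (SD, n = 3), 10.11 ± 0.21 (SD, n = 4), 10.08 ± 0.69 (SD, n = 3) and 10.40 ± 0.31 (SD, n = 4). Double mutants differed from the reference by 0.17 ± 0.26 (SE), with a 95% interval of -0.39 to 0.72 (adjusted p = 0.822 in limma). It was 0.05 without Irx3-/-;Irx5-/- replicate 1 and 0.29 without replicate 3, and 0.47 ± 0.33 with the mean of the sarcomere genes on each array as a covariate (adjusted p = 0.780 in limma). The sarcomere mean itself differed by genotype, at -0.69 in the reference and 0.38 in double mutants. The reference value rests in part on Irx5+/- replicate 3, at -1.58. Values with this covariate, here and below, thus cannot be separated from that difference between genotypes. No neighbours in the order of the 4 group means differed by more than the SDs of the groups.

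Tcf21 encodes a basic helix-loop-helix factor of the epicardium and of fibroblast precursors. On the reference arrays it was 8.92, 8.45 and 8.53, and in Irx3-/-;Irx5+/- hearts 8.27, 9.24, 9.53 and 8.40. In Irx5-/- hearts it was 9.63, 7.39 and 9.44, and in double mutants 10.91, 10.15, 8.79 and 10.13. Of the double mutants, 3 lay above all 10 other arrays and replicate 3 lay inside the reference range. Tcf21 thus covered an 11.5-fold range over the 14 arrays, and the 3 lower group means of 8.63 ± 0.25 (SD, n = 3, reference), 8.86 ± 0.62 (SD, n = 4, Irx3-/-;Irx5+/-) and 8.82 ± 1.24 (SD, n = 3, Irx5-/-) did not differ beyond their spread. The double mutant mean was 9.995 ± 0.88 (SD, n = 4).

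Double mutants exceeded the reference in Tcf21 by 1.36 ± 0.54 (SE), with a 95% interval of 0.19 to 2.53, and this did not pass the test (adjusted p = 0.298 in limma). They exceeded Irx3-/-;Irx5+/- hearts by 1.14 ± 0.50 (adjusted p = 0.624) and Irx5-/- hearts by 1.18 ± 0.54 (adjusted p = 1.00 in limma). The last difference was 0.46 without Irx5-/- replicate 2. Without the array of conflicting description, the difference from Irx3-/-;Irx5+/- hearts was 0.98. With the sarcomere mean of each array as a covariate, the difference from the reference was 2.25 ± 0.63 (adjusted p = 0.338 in limma). The interaction for Tcf21 was 0.95 ± 0.77 (adjusted p = 1.00 in limma). It was 0.24 without Irx5-/- replicate 2, 0.80 without the array of conflicting description, and 0.57 ± 0.70 with the sarcomere covariate.

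Upk3b encodes a uroplakin that marks mesothelium. Its signal was 10.52, 10.43 and 12.05 in the reference and 10.12, 10.77, 11.12 and 10.08 in Irx3-/-;Irx5+/- hearts. It was 11.35, 9.05 and 10.81 in Irx5-/- hearts and 11.78, 11.05, 9.57 and 10.58 in double mutants. The highest array of all was thus a reference array, Irx5+/- replicate 3, which was also the array with the lowest sarcomere mean. The double mutants lay at -0.25 ± 0.59 (SE) against the reference, with a 95% interval of -1.52 to 1.02 (adjusted p = 0.889 in limma). The interval holds a change of more than 1 log2 unit in both directions. The difference turned to 0.27 when Irx5+/- replicate 3 was left out, and to 0.14 when Irx3-/-;Irx5-/- replicate 3 was. With the sarcomere mean as a covariate it was 1.28 ± 0.46 (adjusted p = 0.465 in limma).

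Upk1b, a tetraspanin of the uroplakin group, was 9.22, 8.74 and 9.02 in the reference and 8.74, 9.28, 9.18 and 8.95 in Irx3-/-;Irx5+/- hearts. These groups were tight, with SDs of 0.24 in both. In Irx5-/- hearts it was 10.02, 7.79 and 9.70, and in double mutants 10.51, 9.49, 7.59 and 9.18, and the SD was 1.21 in each. The 4 group means nevertheless lay between 8.99 and 9.19. Differences between group means made up 1.28% of its variance, the lowest share of the 10 genes. The difference of double mutants from the reference was 0.20 ± 0.58 (SE, adjusted p = 0.913 in limma), and its interval of -1.04 to 1.44 does not show the groups to be alike. Without Irx3-/-;Irx5-/- replicate 1 it was -0.24, and without replicate 3 it was 0.73. With the sarcomere covariate it was 1.05 ± 0.69 (adjusted p = 0.761 in limma).

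Msln encodes mesothelin, a surface glycoprotein of mesothelial cells. It was 7.45, 7.91 and 7.95 in the reference and 8.18, 8.19, 8.28 and 7.98 in Irx3-/-;Irx5+/- hearts. These groups did not overlap, and Irx3-/-;Irx5+/- hearts were higher. The difference was 0.39 ± 0.23 (SE) and did not pass (adjusted p = 1.00 in limma). It was 0.45 without the array of conflicting description, the lowest of its group, and 0.22 without Irx5+/- replicate 1. With the sarcomere covariate it was 0.69 ± 0.23 (adjusted p = 0.681 in limma). Irx5-/- hearts (7.41 to 8.35) and double mutants (7.46 to 8.31) overlapped the reference, with means of 7.80 ± 0.49 (SD, n = 3) and 7.91 ± 0.37 (SD, n = 4). The double mutant difference of 0.14 ± 0.23 (SE, adjusted p = 0.839 in limma) was -0.03 without Irx5+/- replicate 1 and 0.56 ± 0.25 with the covariate (adjusted p = 0.592 in limma).

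Lrrn4 encodes a leucine-rich repeat membrane protein found in mesothelium. It was 8.77, 8.99 and 9.24 in the reference and 8.65, 8.70, 8.74 and 7.81 in Irx3-/-;Irx5+/- hearts, so that these groups did not overlap and the reference was higher. The lowest of them, replicate 4, is the array of conflicting description. The difference was -0.52 ± 0.48 (SE, adjusted p = 1.00 in limma), and -0.30 without that array, where the groups still did not overlap. Lrrn4 was 9.66, 7.57 and 8.87 in Irx5-/- hearts and 9.86, 9.42, 8.01 and 8.45 in double mutants, on both sides of the reference. The double mutant difference was -0.06 ± 0.48 (SE, adjusted p = 0.966 in limma) and lay above 0, at 0.06 to 0.25, when Irx5+/- replicate 3 or any of Irx3-/-;Irx5-/- replicates 3 and 4 was left out. With the sarcomere mean as a covariate, the Irx3-/-;Irx5+/- difference was 0.10 ± 0.46 and the double mutant difference 0.83 ± 0.52 (adjusted p = 1.00 and 0.743 in limma).

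Bnc1 encodes basonuclin, a zinc finger protein of epithelial and mesothelial cells. Its arrays ran from 8.88 to 9.38 in the reference, 8.56 to 9.58 in Irx3-/-;Irx5+/- hearts, 8.06 to 9.63 in Irx5-/- hearts and 8.33 to 9.58 in double mutants. All groups overlapped. The difference of double mutants from the reference was -0.25 ± 0.37 (SE, adjusted p = 0.813 in limma), and 0.57 ± 0.37 with the sarcomere mean as a covariate (adjusted p = 0.752 in limma). It was -0.47 without Irx3-/-;Irx5-/- replicate 1 and -0.05 without replicate 3.

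The keratins form the intermediate filaments of simple epithelia, in which a type I chain such as Krt18 or Krt19 pairs with a type II chain such as Krt8. Krt19 was 8.60, 8.70 and 8.36 in the reference and 9.51, 8.89, 9.05 and 8.84 in Irx3-/-;Irx5+/- hearts. It was 9.39, 10.19 and 8.98 in Irx5-/- hearts and 10.25, 8.89, 9.62 and 9.44 in double mutants. Each of the 11 mutant arrays was therefore above each of the 3 reference arrays, a pattern that 0.803% of all genes had. The group means were 8.56 ± 0.18 (SD, n = 3), 9.07 ± 0.30 (SD, n = 4), 9.52 ± 0.62 (SD, n = 3) and 9.55 ± 0.56 (SD, n = 4). The arrays of the 3 mutant groups overlapped one another.

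Krt19 in double mutants exceeded the reference by 1.00 ± 0.30 (SE), with a 95% interval of 0.34 to 1.65, and it did not pass the test (adjusted p = 0.192 in limma). The excess was 0.96 ± 0.33 in Irx5-/- hearts (adjusted p = 0.360) and 0.52 ± 0.30 in Irx3-/-;Irx5+/- hearts (adjusted p = 1.00 in limma). These 3 comparisons share the reference arrays, which held the lowest Krt19 values. Without Irx5-/- replicate 2, the array with the highest sarcomere and macrophage means, the Irx5-/- difference was 0.63, and without the array of conflicting description the Irx3-/-;Irx5+/- difference was 0.59. Over the 14 arrays, which were normalised together, Krt19 correlated with the sarcomere mean at r = 0.643 (rho = 0.648), at 0.389 after group means were removed, and at 0.471 without the 2 arrays farthest from the median sarcomere mean. With that mean as a covariate, the double mutant difference was 0.63 ± 0.38 (adjusted p = 0.735 in limma), which is less by over 1.5 times. The Irx3-/-;Irx5+/- difference was then 0.26 ± 0.34 (adjusted p = 1.00 in limma).

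Krt8 and Krt18, the usual partners in simple epithelia, lie beside each other on chromosome 15 with 0 protein-coding genes starting between them. Krt8 was 8.79, 9.45 and 9.45 in the reference and 9.61, 9.86, 9.67 and 9.41 in double mutants, a difference of 0.41 ± 0.20 (SE, adjusted p = 0.388 in limma). Of the double mutants, 3 were above every reference array. The difference was 0.19 without Irx5+/- replicate 1, the lowest array, and 0.75 ± 0.23 with the sarcomere covariate (adjusted p = 0.368 in limma). The other groups had Krt8 means of 9.32 ± 0.30 (SD, n = 4, Irx3-/-;Irx5+/-) and 9.27 ± 0.24 (SD, n = 3, Irx5-/-). Krt18 was 8.59, 8.31 and 8.67 in the reference and 9.50, 8.91, 8.40 and 8.91 in double mutants, a difference of 0.40 ± 0.22 (SE, adjusted p = 0.451 in limma). Against the 8.37, 8.83, 8.30 and 8.30 of Irx3-/-;Irx5+/- hearts, Krt18 of double mutants was higher by 0.48 ± 0.20 (adjusted p = 0.624 in limma). Without Irx3-/-;Irx5-/- replicate 1, the highest array, these differences were 0.21 and 0.29, and the latter was 0.43 without the array of conflicting description. The genes of the pair correlated with each other at r = 0.147 over 14 arrays.

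**Figure D2:**
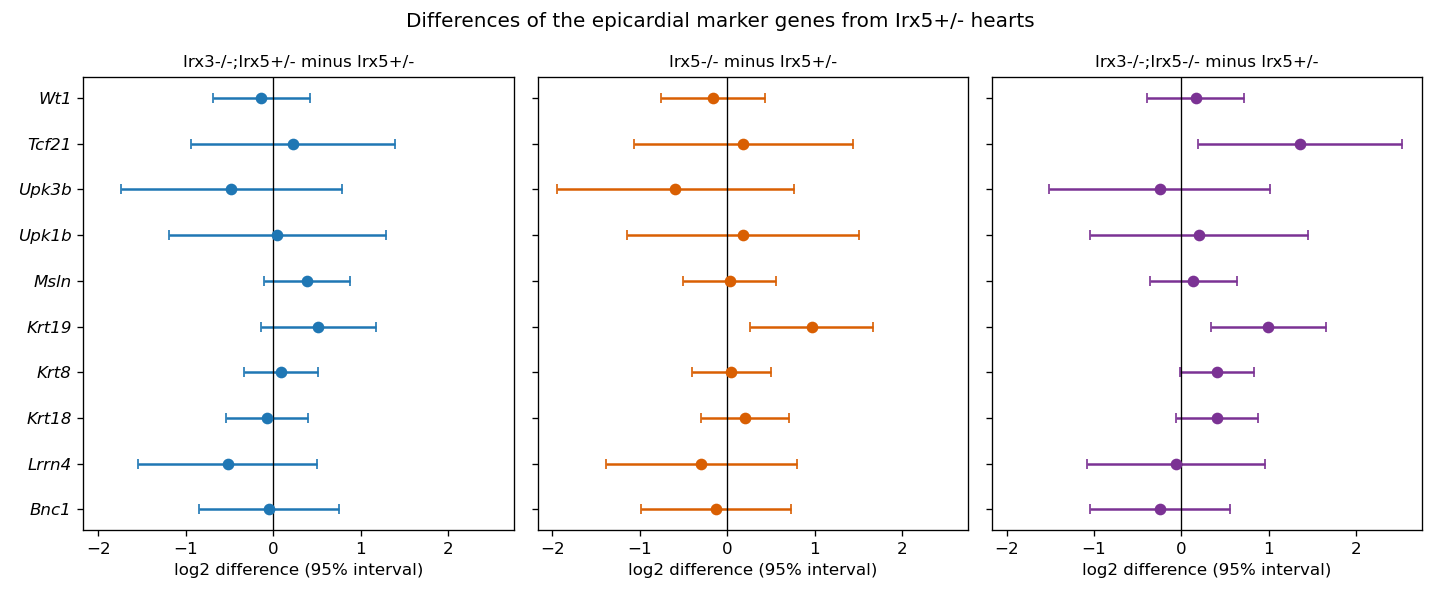
Difference of each epicardial marker gene (rows) from Irx5+/- hearts in log2 units (horizontal axis) for Irx3-/-;Irx5+/-, Irx5-/- and Irx3-/-;Irx5-/- hearts, with points at the limma estimate and bars for its 95% interval, not adjusted for the number of genes. The intervals of Krt19 in the Irx5-/- and double mutant panels and of Tcf21 in the double mutant panel lie above 0, and all others cross it.

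The spread between arrays of the same genotype was wide for these genes. In all 10, the largest range within a group was wider than the span of the 4 group means. A range of single arrays readily exceeds a span of means. The share of all genes with this trait was not computed, so the count does not set these genes apart. For Upk1b, the range among the 4 double mutants was 2.92 against a span of means of 0.20, and for Upk3b the range among the 3 Irx5-/- arrays was 2.30 against 0.59. The median residual SD of the 10 genes was 0.50, against 0.19 over all genes. Upk3b stood at the 99.7th percentile of residual SD among all genes, Upk1b at the 99.6th, Tcf21 at the 99.4th and Lrrn4 at the 98.8th, while Krt8 at the 77.4th varied least. Differences between group means made up a median of 19.1% of the variance of the 10 genes, against 24.6% over all genes. The share was largest in Krt19 (50.9%) and Tcf21 (39.2%). Group means of so few arrays also differ by chance, and the share to be expected from that was not computed.

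The same arrays stood at the extremes for many of the genes. How many of all genes had an extreme on these arrays was not computed. Genes that vary together are also not separate observations. Irx5-/- replicate 2 was the lowest of all 14 arrays for 6 of the 10, namely Wt1, Tcf21, Upk3b, Msln, Lrrn4 and Bnc1. Irx3-/-;Irx5-/- replicate 1 was the highest for 6, namely Wt1, Tcf21, Upk1b, Krt19, Krt18 and Lrrn4. The mean of the 10 genes, each centred on its mean over arrays, was -0.74 on the former and 0.90 on the latter. It was -0.46 on Irx3-/-;Irx5-/- replicate 3 and 0.47 on Irx5-/- replicate 1, so that Irx5-/- hearts and double mutants each held a high and a low array. The reference arrays stood at -0.20, -0.16 and 0.06 and the Irx3-/-;Irx5+/- arrays at -0.22, 0.07, 0.12 and -0.35.

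**Figure D3:**
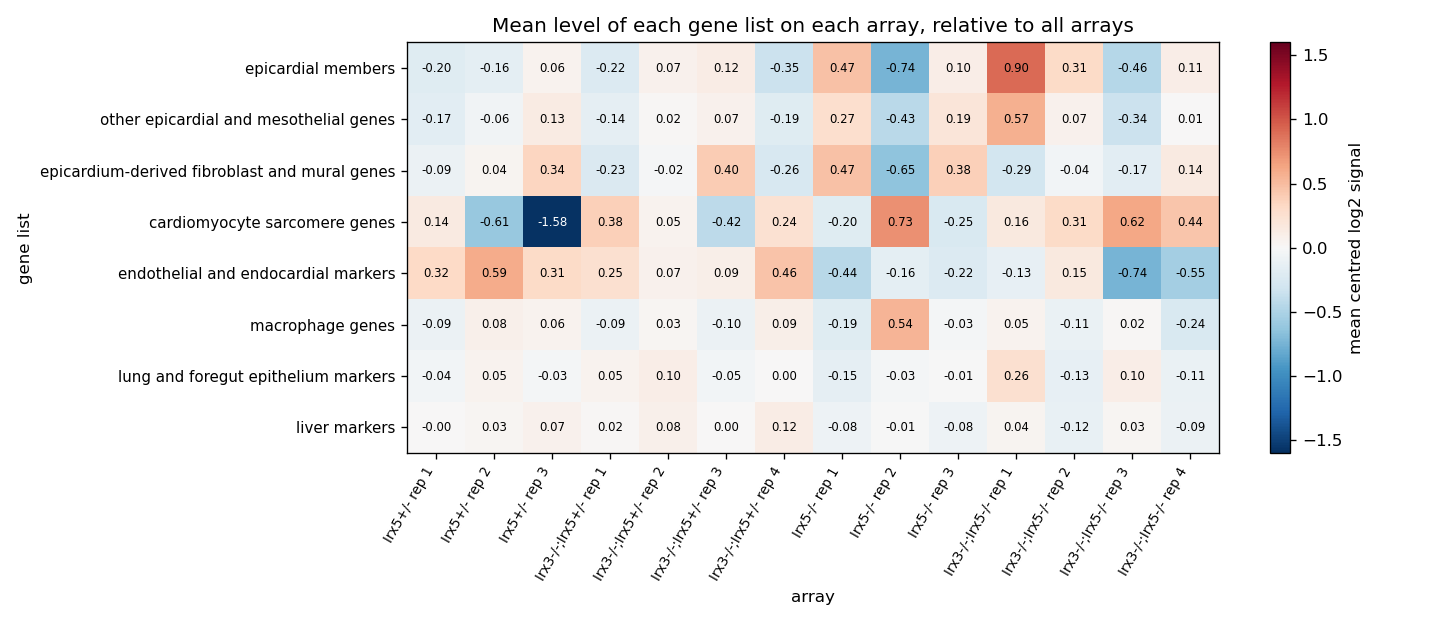
Mean of each gene list (rows) on each array (columns) in log2 units, with each gene centred on its mean over the 14 arrays, as colour and printed value. The row of the 10 epicardial marker genes reaches -0.74 on Irx5-/- replicate 2 and 0.90 on Irx3-/-;Irx5-/- replicate 1, and the row of other epicardial genes is -0.43 and 0.57 there.

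Across the 14 arrays, 7 of the genes varied together and the 3 keratins largely did not. This division by gene family was made with the values known, and the correlations are given as a description of these arrays. Among Wt1, Tcf21, Upk3b, Upk1b, Msln, Lrrn4 and Bnc1, the 21 pairs had a median r of 0.686 (0.467 to 0.870). After each group mean was removed, the median was 0.833 (0.661 to 0.936). Over all pairs of genes on the arrays the median was 0.012, with 5th and 95th percentiles of -0.501 and 0.546. The closest pairs were Upk3b with Lrrn4 at 0.870, Upk3b with Bnc1 at 0.857 and Lrrn4 with Bnc1 at 0.844, the genes whose promoter windows are shown above. Wt1 was closest to Lrrn4, at 0.83.

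These correlations were lower without a pair of arrays. Without Irx5-/- replicate 2 and Irx3-/-;Irx5-/- replicate 1, which were picked for their extreme values, the median of the 21 pairs over 12 arrays was 0.493 (0.106 to 0.770). The 3 keratins had a median r of 0.162 (-0.326 to 0.578) with the other 7 genes. Krt19 correlated with the mean of the other 9 at -0.078 and Krt8 at 0.246, while Krt18 did so at 0.564 and Upk1b at 0.875. On Irx5-/- replicate 2, the lowest array for 6 of the genes, Krt19 had its second highest value, 10.19.

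**Figure D4:**
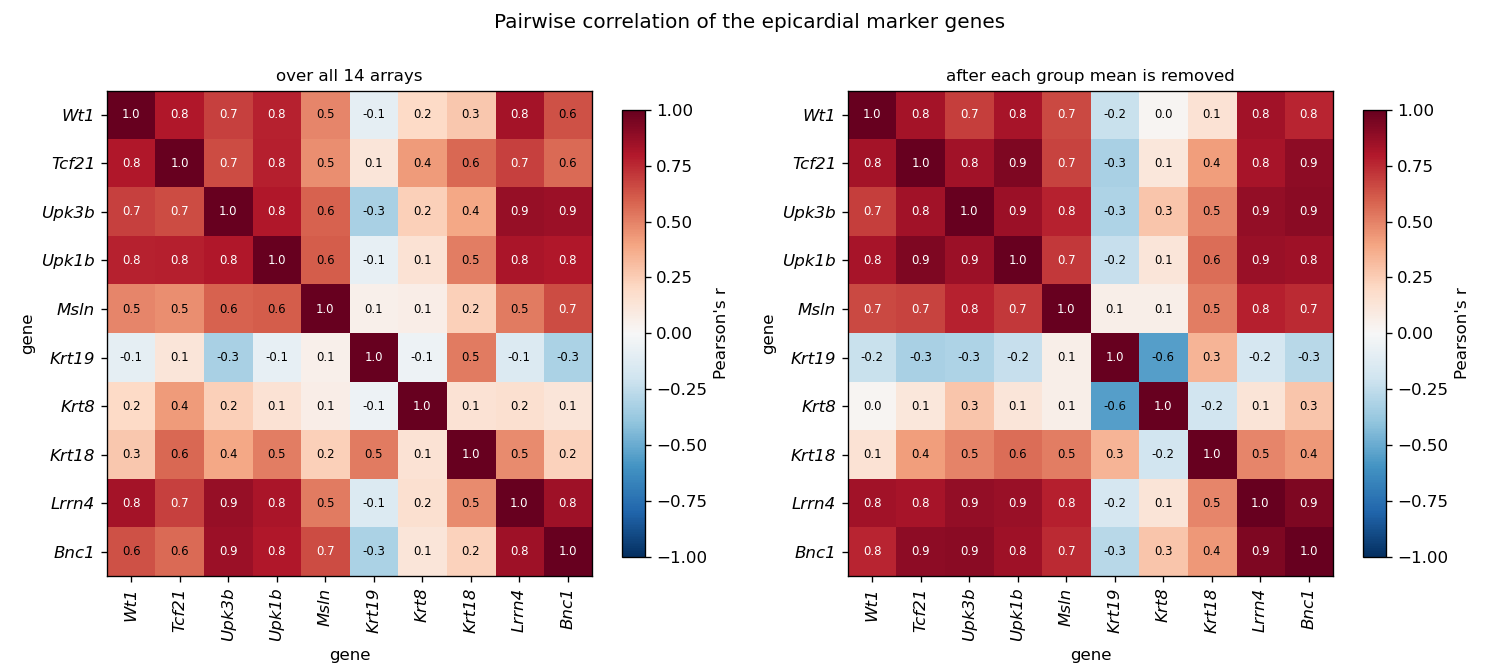
Pearson's r between each pair of the 10 epicardial marker genes over the 14 arrays (left) and after each group mean was removed (right), as colour and printed value. The 7 genes other than keratins form blocks of 0.467 to 0.870 and 0.661 to 0.936. The rows of Krt19 and Krt8 are mostly lower, and on the left reach 0.516 (Krt19 with Krt18) and 0.429 (Krt8 with Tcf21).

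The genes whose pattern was most like the mean of the 10 over the 14 arrays were Aldh1a2 (r = 0.951), Lratd2 (0.950), Efemp1 (0.931), Krt7 (0.909), Pkhd1l1 (0.906), Plekhh2 (0.899), Naalad2 (0.897) and Aplp1 (0.897). Aldh1a2 makes retinoic acid and is an epicardial gene of the list below, as is Efemp1, an extracellular matrix protein. Krt7 is a type II keratin of simple epithelia. Without the pair of extreme arrays, Aldh1a2 was at 0.918, Lratd2 at 0.880 and Krt7 at 0.776. The Aldh1a2 signal was 8.18, 8.34 and 9.69 in the reference and 9.18, 8.86, 9.15 and 7.92 in Irx3-/-;Irx5+/- hearts. It was 10.38, 7.13 and 9.59 in Irx5-/- hearts and ran from 7.554 to 10.999 in double mutants, with the highest and lowest arrays those of the marker genes. The double mutant difference in Aldh1a2 was 0.72 ± 0.79 (SE, adjusted p = 0.733 in limma).

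**Figure D5:**
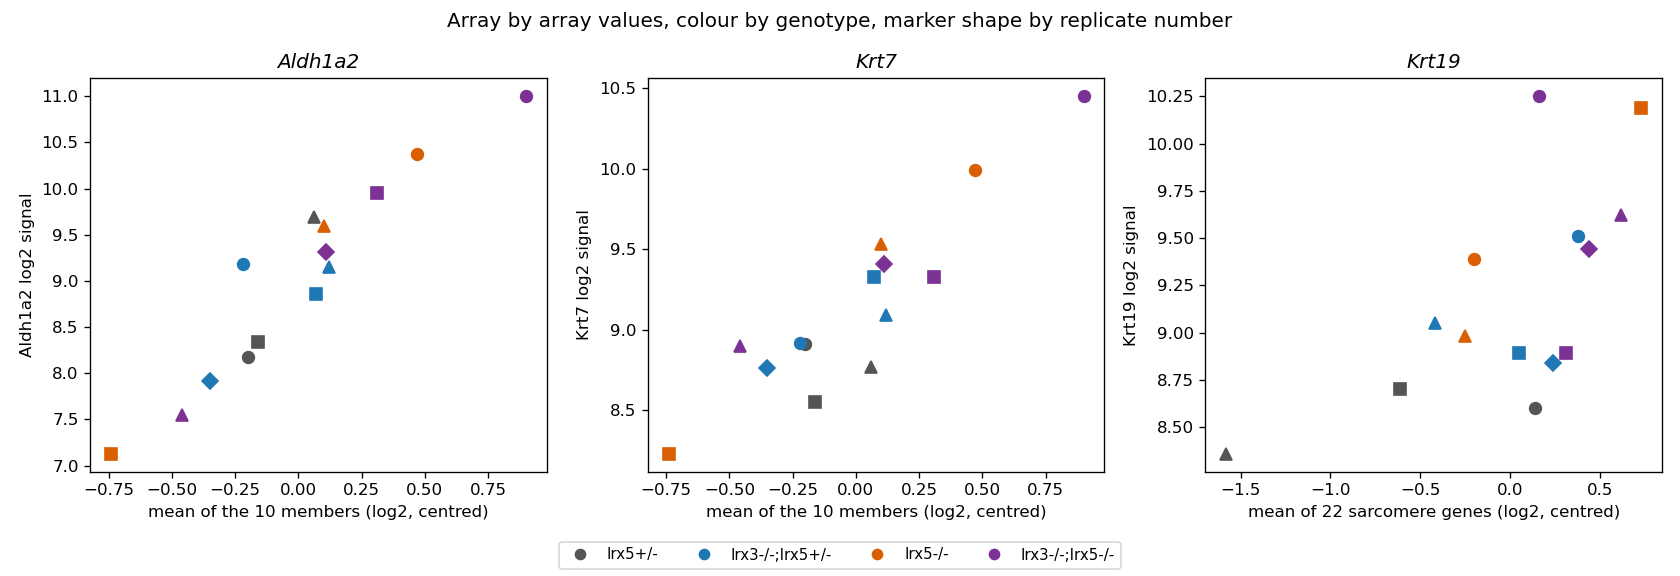
Log2 signal of Aldh1a2 and Krt7 against the mean of the 10 epicardial marker genes, and of Krt19 against the mean of 22 sarcomere genes, with 1 point per array, colour for genotype and marker shape for replicate number (circle 1, square 2, triangle 3, diamond 4). Aldh1a2 (r = 0.951) and Krt7 (r = 0.909) rise along the whole range of arrays, while the Krt19 points (r = 0.643) scatter more widely.

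A list of 27 other epicardial and mesothelial genes was set beside the 10. Of these, 11 (40.7%) correlated with the mean of the 10 at r above 0.5, against 904 of the 19921 genes outside the 10 (4.54%). Besides Aldh1a2 and Efemp1 they included Tbx18 (0.838), a T-box factor of the epicardium, Rspo1 (0.83), a Wnt agonist, Sema3d (0.813), Aldh1a1 (0.812), Itga4 (0.772) and Muc16 (0.757). Among factors of the epithelial to mesenchymal transition it was 4 of 11, with Sox9 at 0.806 and Snai2 at 0.649, and among fibroblast and mural genes 5 of 16. It was 5 of 31 (16.1%) for signalling genes, 2 of 11 (18.2%) for stratified epithelial keratins, 1 of 3 for other simple keratins (Krt7) and 1 of 13 (7.69%) for lung and foregut epithelium. Some of the genes counted here had mean signals below the olfactory floor of 7.57, namely Krt1 (6.60), Esrp1 of lung and foregut (6.38) and Muc16 (7.47). It was 0 of 22 for sarcomere genes, 0 of 22 for endothelial and endocardial markers, 0 of 9 for liver markers, 0 of 12 for macrophage genes and 0 of 3 for the other uroplakins. The mean of the 10 correlated with that of the macrophage genes at -0.534, and at -0.230 without the 2 arrays farthest from the median. With that of the sarcomere genes it correlated at -0.287, at -0.628 after group means were removed and at -0.546 without the 2 farthest arrays, so that arrays of a genotype with more signal of the marker genes tended to have less of the muscle genes.

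The other epicardial genes also gave 0 calls in the 3 comparisons with the reference. At an unadjusted p under 0.05, 1 of 27 was higher in Irx3-/-;Irx5+/- hearts, 3 were higher and 4 lower in Irx5-/- hearts, and 5 were higher and 4 lower in double mutants (5.07%, 10.6% and 13.5% of all genes). Cav1, the caveolin of surface invaginations, which endothelial cells also express, had group means of 10.58, 10.29, 9.99 and 9.45 in the order reference, Irx3-/-;Irx5+/-, Irx5-/- and double mutants. Its double mutant difference was -1.13 ± 0.19 (SE, adjusted p = 0.0775 in limma). Pdpn, a membrane mucin of mesothelium, went the other way with means of 9.25, 9.87, 10.21 and 10.30 and a double mutant difference of 1.04 ± 0.23 (adjusted p = 0.122 in limma). Rspo3, a Wnt agonist, differed by 0.66 ± 0.19 (adjusted p = 0.169 in limma) and Nfatc1, also an endocardial factor, by -0.54 ± 0.15 (adjusted p = 0.169 in limma). Nfatc1 is also 1 of the 22 endothelial and endocardial markers, which were all below 0 in double mutants, as Cav1 was. Their part in the Cav1 value was not tested.

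Tbx18 was picked after its values were seen, because its arrays separated where those of Tcf21 did not. It was 7.90, 7.98 and 8.51 in the reference and 7.73, 8.51, 8.27 and 7.63 in Irx3-/-;Irx5+/- hearts, below the 9.67, 8.80, 8.65 and 8.88 of double mutants. Irx5-/- hearts, at 9.35, 7.74 and 8.45, spanned both. The double mutant difference was 0.87 ± 0.35 (SE) and did not pass (adjusted p = 0.298 in limma).

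Of 31 genes for signals between epicardium and muscle, 0 were called. At an unadjusted p under 0.05, 0 differed in Irx3-/-;Irx5+/- hearts, 1 was lower in Irx5-/- hearts and 2 were lower in double mutants, beside the same shares of all genes, which 2 of 31 does not reach. Tgfbr3, a co-receptor for transforming growth factor beta, had group means of 10.55, 10.61, 9.71 and 9.71, and a double mutant difference of -0.84 ± 0.26 (SE, adjusted p = 0.203 in limma). Cxcr4 (0.46 ± 0.23), a chemokine receptor, Epor (-0.10 ± 0.10), the erythropoietin receptor, and Fgfr1 (-0.40 ± 0.19), a receptor for fibroblast growth factors, followed in p over the 4 genotypes. Among 11 transition factors and 16 fibroblast and mural genes, 0 were called. Sox9 differed by 0.99 ± 0.39 in double mutants (adjusted p = 0.290 in limma), and Cdh2, a cadherin that heart muscle also expresses, by 0.68 ± 0.23 (adjusted p = 0.223 in limma) while all 22 sarcomere genes lay above 0. The part of the muscle genes in the Cdh2 value was not tested. Vim (-0.18 ± 0.08) and Twist1 (0.41 ± 0.35) followed among the transition factors. Of the fibroblast and mural genes, the double mutant differences were 0.45 ± 0.27 for Tagln, -0.75 ± 0.24 for Ddr2, a collagen receptor, -0.44 ± 0.18 for Fn1, fibronectin, and 0.28 ± 0.13 for Acta2, smooth muscle actin.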

How the data were processed

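RNA was prepared with PicoPure reagents, and 1 ng of it went into the NuGEN amplification and biotin labelling, per the labels' protocols. The deposited values are log2 signals per probe set, made by the authors with RMA from the package affy over all arrays together, per the file headers. RMA draws the distributions of all arrays to one shape, so each difference is relative to the other genes on the array. The sources used here give neither versions nor the genome build of the array annotation.

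Of 28763 probe sets, 21776 had 1 gene symbol in the platform's probe table, 1592 several and 5395 none, and 21685 of the first were found by gene ID in the RefSeq gene table. For the 998 genes with more than 1 probe set, the brightest on average was taken.

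Group means over all 14 arrays were compared with limma (version 3.58.1, R 4.3.3), 2-sided, with Benjamini-Hochberg adjustment over 19931 genes. The procedure was tested on simulated data. Errors of differences are standard errors and those of means are SDs. The genes, the lists and the tests were chosen with earlier results of these data known. The genes named from the epicardial, signalling, transition and fibroblast lists were the 4 with the smallest p over the 4 genotypes, the lists of other cell types are given as counts and means, and those named for likeness were the 8 with the highest r. Arrays have no read depth, and their number limits the precision. Alternatives changed the fit, the scaling, the probe set rule, a filter on dim genes and a sarcomere covariate, and left out each array in turn.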

Additional observations from a re-analysis of the deposited data

Results flagged for a closer look

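In the groups of 4 arrays, 20 combinations of gene and group were checked for an array far from the others, and chance picks out about 1 in 20. The Krt18 signal of Irx3-/-;Irx5+/- replicate 2 was 8.83, where the other 3 arrays of the group lay at 8.30 to 8.37. The Lrrn4 signal of Irx3-/-;Irx5+/- replicate 4 was 7.81, where the other 3 lay at 8.65 to 8.74. The latter is the array whose description names Irx5-/-. The Irx5-/- arrays had Lrrn4 signals of 9.66, 7.57 and 8.87.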

How the results depend on the processing

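The count of epicardial marker genes called was 0 in every comparison and under every alternative run. Counts over all genes were small and less steady. Double mutants against the reference gave 4 genes, 15 with only the groups compared in the fit, 2 with the mean of all probe sets of a gene, and 0 with a sarcomere covariate or a replicate block. Double mutants against Irx3-/-;Irx5+/- hearts gave 1 gene, and 0 with a replicate block, a sarcomere covariate, only the groups compared, arrays shifted to one median, the mean of all probe sets or the filter on dim genes. Any difference among the 4 genotypes gave 1 gene, and 0 with a replicate block, the mean of all probe sets or a sarcomere covariate. The causes were not tested. With each array left out in turn, the counts ran from 0 (without Irx5+/- replicate 2) to 42 (without Irx5-/- replicate 2) for double mutants against the reference. They were 0 throughout for double mutants against Irx3-/-;Irx5+/- hearts, 0 to 1 for double mutants against Irx5-/- hearts and for Irx5-/- hearts against the reference, and 0 to 2 for any difference. The double mutant difference from the reference then ran from -0.37 to 0.25 for Lrrn4, from -0.027 to 0.29 for Msln, from -0.24 to 0.73 for Upk1b and from -0.60 to 0.27 for Upk3b. It ran from 0.05 to 0.29 for Wt1, from -0.47 to -0.05 for Bnc1, from 0.19 to 0.52 for Krt8 and from 0.21 to 0.58 for Krt18. The ranges of Tcf21 and Krt19 are not given here, and their differences are not shown to be steadier. With a sarcomere covariate the double mutant difference turned to 1.28 for Upk3b, 0.83 for Lrrn4 and 0.57 for Bnc1. It kept its sign at 2.25 for Tcf21, 1.05 for Upk1b, 0.75 for Krt8, 0.56 for Msln, 0.47 for Wt1 and 0.63 for Krt19. The Irx3-/-;Irx5+/- difference of Lrrn4 was then 0.10. The covariate itself differed by genotype, so these values cannot be separated from that difference. With the replicate block, the double mutant difference of Lrrn4 was 0.13. Samples of the same replicate number deviated from their group means with correlations of -0.179 to 0.191. Samples of unlike number were not compared in this way. No label says that a number marks a shared litter or day, so whether the numbers pair the samples is not known. With 3 or 4 arrays a group, the double mutant intervals of Upk3b, Upk1b, Lrrn4 and Bnc1 reach past 0.5 log2 units on both sides. A change of that size in either direction is therefore not excluded for them. The medians of the sarcomere and endothelial genes without single arrays were added after the data were seen.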
